A study of Rattus norvegicus with 12 samples.

Results

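Ventral hippocampus (VH) was compared with dorsal hippocampus (DH) in Sprague-Dawley rats at postnatal day 28 (P28), using 4 of the 12 RNA sequencing libraries of a study of the postnatal hippocampal axis. The question was which transcripts differ between the 2 ends of the hippocampus at this age. The whole hippocampal formation, from dentate gyrus to subiculum, was dissected and its 2 end portions were kept without the middle one, and P14, P28 and P45 rats gave 2 libraries for each end. No treatment or genetic change was used, and the sources used here do not say whether the 2 libraries of a group came from separate animals or from pooled tissue, so p-values measure only the spread between these samples. Of the 17933 transcripts in the deposited table, 14259 were above 0 in at least 2 of the 12 libraries and were tested. A transcript was called enriched in a region at a fold change above 1.5 and an adjusted p under 0.05, by limma across all 12 libraries.

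The dorsal part of the rodent hippocampus is linked mainly to spatial learning, and the ventral part to anxiety, stress responses and motivated behaviour. Dentate granule cells and the pyramidal cells of CA3, CA2 and CA1 run the length of the structure, and their gene expression changes along it. The ventral end is reached more densely by serotonin and other modulatory fibres, and it projects to the amygdala, the hypothalamus and the prefrontal cortex. FPKM counts fragments scaled to transcript length and to the mapped fragments of the library, so it is a level per length. A fold change here is the ratio of FPKM + 1 in VH over DH, given as log2 with its standard error (SE), so it understates the change of low transcripts.

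At P28, 293 transcripts (2.05% of those tested) were ventrally enriched and 288 (2.02%) were dorsally enriched, the shares against which the counts of each gene list are to be read. These calls use the spread of all 12 libraries: a fit of the 4 P28 libraries alone gave 0 in either direction (444 and 386 at an unadjusted p under 0.05 and a fold above 1.5), and a limma test against a fold of 1.5 left 26 ventral and 21 dorsal. In all 581 of them the 2 regions did not overlap, which was also so for 24.5% of all tested transcripts with VH above and 23.3% with DH above. The dorsally enriched transcripts were the more abundant, with a median level of 23.2 FPKM over the 4 libraries against 10.1 FPKM for the ventrally enriched ones. The ventral list held the larger differences, with 124 transcripts above 2-fold and 18 above 4-fold, against 83 and 11 on the dorsal list. Over all tested transcripts the median log2 difference was 0.000. Summed FPKM ranged from 511859 to 531953 across the 4 libraries, and 13073 to 13418 transcripts were above 0 in each. The table gives FPKM without read counts, so no counting interval is given. With each P28 library left out in turn, all calls kept their sign and 92 ventral and 96 dorsal calls passed in all 4 fits, named below as calls kept in every fit. The counts were 178 ventral and 204 dorsal without DH 1, 183 and 165 without DH 2, 188 and 176 without VH 1, and 121 and 140 without VH 2.

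**Figure D1:**
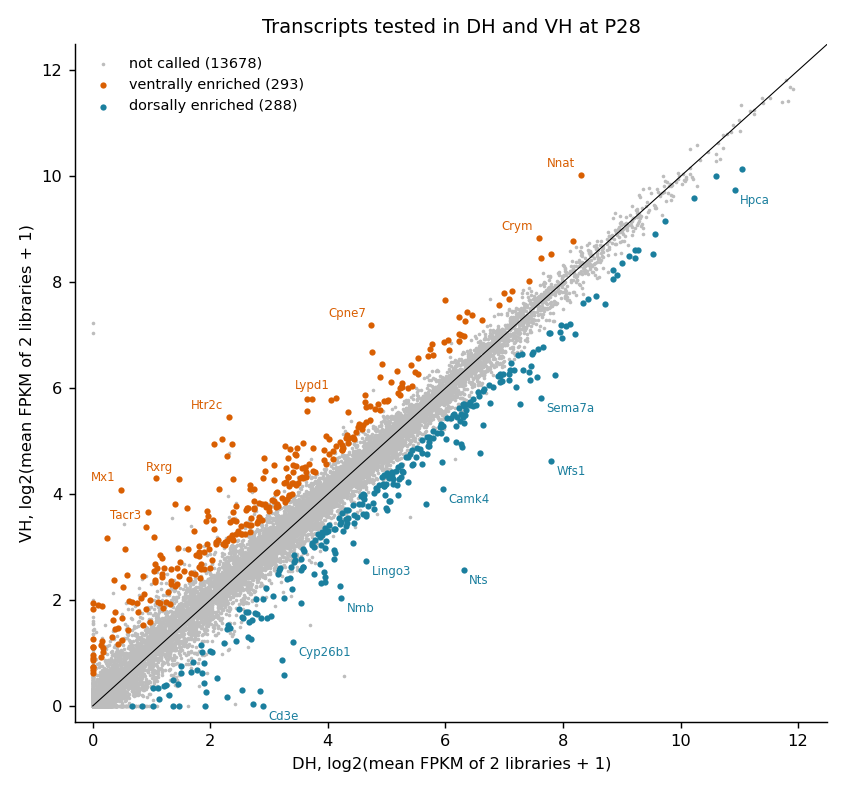
Each point is 1 of the 14259 transcripts tested, at its mean level in the 2 DH libraries (x axis) and the 2 VH libraries (y axis), both as log2(FPKM + 1), with equality as the line. The 293 ventrally enriched transcripts lie above the line and the 288 dorsally enriched ones below it, and a selection of genes is labelled.

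Among called transcripts of at least 1 FPKM in the higher region, the one with the largest dorsal difference was Nts, the precursor of the neuropeptide neurotensin, read at 89.8 and 67.0 FPKM in DH and at 6.02 and 3.85 in VH. Wfs1, which encodes the endoplasmic reticulum protein wolframin and marks CA1 pyramidal cells, was next. Its levels were 267 and 177 FPKM in DH and 26.5 and 20.9 in VH, a log2 fold change of -3.16 (SE 0.41, adjusted p = 0.00513). Cyp26b1, an enzyme that breaks down retinoic acid, was at 8.38 and 10.9 FPKM in DH and 1.25 and 1.39 in VH, and Lingo3, a leucine-rich repeat membrane protein, was at 24.8 and 23.5 against 4.54 and 6.81. Cyp1b1, another cytochrome P450 enzyme, was at 9.21 and 7.36 FPKM in DH and at 0.879 and 0.779 in VH, with a log2 fold change of -2.34 (SE 0.24, adjusted p = 0.00226). Among the other leading dorsal transcripts were Cd3e, Nmur2, Ppl, Robo3, Nmb and Hdc, with log2 fold changes between -2.82 and -2.07. Among them Hdc, the enzyme that makes histamine, was at 2.72 and 5.01 FPKM in DH and at 0.165 and 0.0813 in VH. In none of these genes did the libraries of the 2 regions overlap.

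On the ventral side the largest differences, among called transcripts by the same limit, were those of a transcript of Mx1, an interferon-induced GTPase, and Ttr, the transthyretin carrier of thyroid hormone and retinol. Htr2c, the serotonin 2C receptor, was at 3.85 and 4.11 FPKM in DH and at 41.0 and 44.9 in VH, a log2 fold change of 3.14 (SE 0.40, adjusted p = 0.00444). Atp2b4, a calcium pump of the plasma membrane, was at 3.60 and 2.75 FPKM in DH against 32.8 and 26.8 in VH, with a log2 fold change of 2.88 (SE 0.20, adjusted p = 0.000718). Rxrg, a retinoid X receptor, was at 1.77 and 1.73 against 17.2 and 19.6 FPKM and had the smallest adjusted p of the ventral list, 0.000622. Nr2f2, the nuclear receptor COUP-TFII, was at 4.26 and 2.98 FPKM in DH and 28.8 and 34.9 in VH. Cpne7, a calcium-dependent phospholipid-binding copine, was the most abundant of the 12 leading ventral transcripts, at 27.5 and 24.0 FPKM in DH and 146 and 144 in VH. Its relative Cpne2 was at 10.3 and 12.8 against 50.3 and 58.3 FPKM. Dlk1, Bace2, Tpd52l1, Tacr3 and Kcnf1 completed the list, with log2 fold changes from 2.44 to 2.92. Of these 12, 9 calls were kept in every fit, and 9 of the 12 dorsal ones as well. Ttr was lost without any 1 of the 4 libraries (highest adjusted p 0.132), Nmur2 likewise (0.109) and Nmb without DH 2 or VH 1 (0.0675), while Dlk1 (0.0514), Bace2 (0.0512) and Cd3e (0.0518) were lost without VH 2, all by limma.

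**Figure D2:**
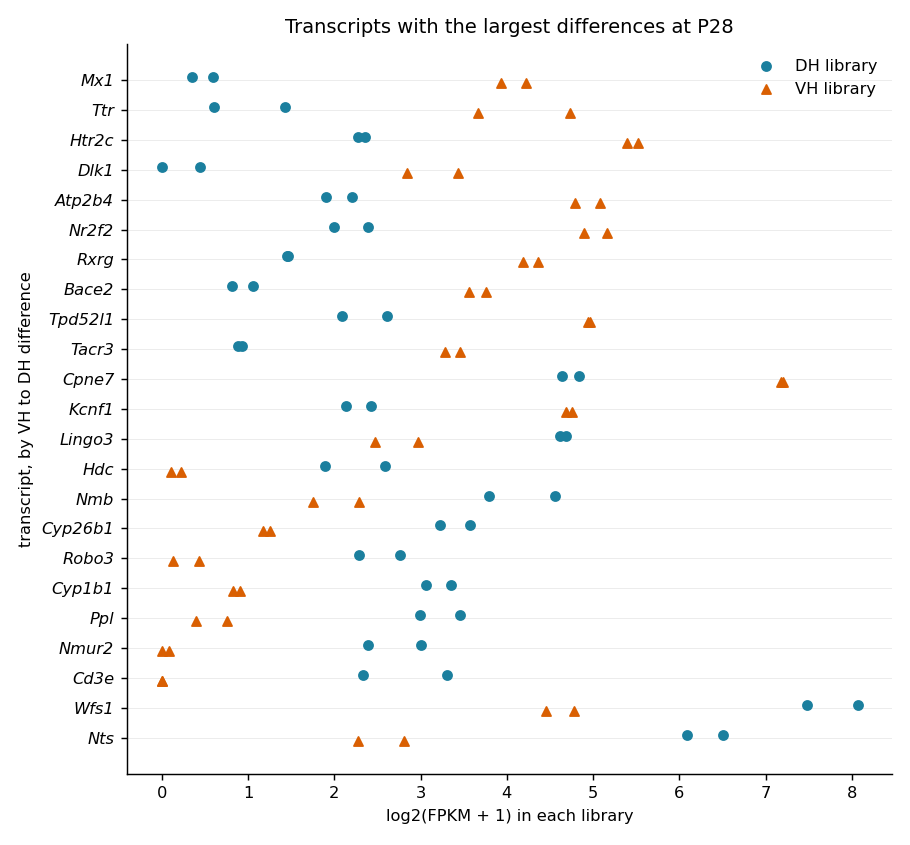
Levels of 23 of the 24 leading transcripts as log2(FPKM + 1) in each P28 library, with circles for the 2 DH libraries and triangles for the 2 VH libraries, ordered by the VH to DH difference. In every row both points of one region lie apart from both points of the other.

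Among abundant transcripts the differences were smaller but close between duplicates. Hpca, the calcium sensor hippocalcin, was at 2070 and 1804 FPKM in DH and at 859.6 and 856 in VH, a log2 fold change of -1.17 (SE 0.09, adjusted p = 0.000803). Camk2a and Camk2b, the main subunits of calcium-calmodulin kinase II, had log2 fold changes of -0.90 and -0.77. Cplx2, a complexin of the vesicle release machinery, was at 1137 and 1271 FPKM in DH and 753.9 and 784 in VH. Fth1, the ferritin heavy chain that stores iron, was at 1620 and 1486 FPKM in DH and 1080 and 984.9 in VH. On the ventral side Nnat, neuronatin, a small membrane protein from an imprinted gene, was the most abundant, at 342 and 288 FPKM in DH and 998 and 1085 in VH. Crym, which binds thyroid hormone, was at 198 and 185 against 482 and 426 FPKM, with a log2 fold change of 1.24 (SE 0.10, adjusted p = 0.000845). Ndn, necdin, another imprinted gene, had a log2 fold change of 0.79. In each of these the 2 regions were apart, and all but Cplx2 and Fth1 were kept in every fit. Over the leave-outs the log2 fold change ran from -0.66 to -0.52 for Fth1 and from -0.72 to -0.56 for Cplx2. The fold change of Cplx2 was under 1.5 without DH 2.

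Neuropeptide precursors were called on both sides. Of 54 precursor transcripts tested, 4 were ventrally and 6 dorsally enriched (7.41% and 11.1%, against 2.05% and 2.02% of all transcripts), and the median log2 difference of the list was 0.00. The bombesin family divided between the regions. Nmb, neuromedin B, was at 12.9 and 22.6 FPKM in DH and 2.37 and 3.88 in VH, a log2 fold change of -2.16 (SE 0.35, adjusted p = 0.0106). Grp, gastrin-releasing peptide, was at 4.10 and 2.71 FPKM in DH and 13.5 and 18.6 in VH, a log2 fold change of 1.95 (SE 0.32, adjusted p = 0.0106). The Grp call was lost without DH 2 or VH 2, with a highest adjusted p of 0.0771. Their receptors did not pass: Nmbr was at 1.81 and 1.73 FPKM in DH and 3.08 and 2.53 in VH, and Grpr, whose regions overlapped, was at 1.51 and 2.54 against 1.44 and 2.68. Cartpt, the precursor of the CART peptide, was at 4.93 and 6.05 FPKM in DH and 1.68 and 1.10 in VH. Avp, vasopressin, was at 1.11 and 2.04 FPKM in DH and listed at 0 in both VH libraries. Chgb and Scg2, 2 granins of dense-core vesicles, went in opposite directions, with log2 fold changes of -0.61 and 0.74. Of the precursor calls only Nts and Scg2 were kept in every fit. Chgb was kept in 2 of them, with log2 fold changes from -0.68 to -0.54 over the fits. Ghrl was called ventral on levels of 0 against 0.616 and 0.605 FPKM. With 1 library left out, 1 to 4 precursors were called ventral, lowest without DH 2, and 2 or 3 dorsal, lowest without VH 1 or VH 2.

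Receptors for neuropeptides leaned to the ventral side. Of 71 transcripts tested, 12 were ventrally enriched (16.9%, against 2.05% of all transcripts) and 3 dorsally enriched (4.23%, against 2.02%), and 52 were higher in VH, with a median log2 difference of 0.18. Tacr3, the receptor for neurokinin B, was at 0.849 and 0.911 FPKM in DH and 8.75 and 9.94 in VH, a log2 fold change of 2.46 (SE 0.31, adjusted p = 0.00433). Tac3, the precursor of neurokinin B, differed the other way, at 32.3 and 30.2 FPKM in DH and 12.8 and 11.2 in VH (log2 fold change -1.32, adjusted p = 0.0147). The Tac3 call was lost when any 1 library was left out, at log2 fold changes from -1.40 to -1.23. Sstr1 and Sstr2, receptors for somatostatin, also went opposite ways. Sstr1 was at 4.25 and 4.19 FPKM in DH and 17.5 and 19.6 in VH, and Sstr2 was at 10.3 and 11.4 against 7.17 and 6.42. Oprl1, the nociceptin receptor, was at 7.46 and 7.43 FPKM in DH and 17.5 and 18.8 in VH, with a log2 fold change of 1.18. Trhr, the receptor for thyrotropin-releasing hormone, was at 0.915 and 1.20 against 6.60 and 9.56 FPKM, and Npy2r, a neuropeptide Y receptor, at 11.0 and 7.05 against 21.8 and 27.4. Crhr1, the receptor for corticotropin-releasing hormone, was at 1.99 and 2.201 FPKM in DH and 4.07 and 4.51 in VH. Galr1, Ednra, Npr3, Rxfp3, Kiss1r and Npffr1 were the other ventral calls. Nmur2, a receptor for neuromedin U and S, was at 7.01 and 4.26 FPKM in DH and at 0.0567 and 0 in VH, and Hcrtr1, an orexin receptor, at 1.94 and 1.70 against 0.549 and 0.541. The libraries of the regions were apart in each gene given here, and several levels were under 2 FPKM. Between 4 and 6 ventral calls were found with 1 library left out, lowest at 4 without DH 2, and 4 calls (Tacr3, Sstr1, Oprl1 and Ednra) were kept in every fit. The 3 dorsal calls fell to 1 without DH 1 or VH 1 and to 0 without DH 2 or VH 2.

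Upstream sequences are shown for Nmb and Grp, relatives enriched at opposite ends, and for Wfs1 and Tacr3, leading genes of each end. They are the 250 bases before the annotated start in RefSeq (build GRCr8, whereas the deposited table was mapped to rn5), 5′ to 3′ along the gene. Capitals mark exact matches on either strand to GGGCGG (the GC box, CCGCCC when on the other strand) and TATAAA (the TATA box, TTTATA when on the other strand). TGACGTCA and AGGTCA were also searched and had no match in these windows. They lie at chr1:144281423-144281672 (minus strand, Nmb), chr18:61658405-61658654 (plus strand, Grp), chr14:78034955-78035204 (plus strand, Wfs1) and chr2:225940247-225940496 (plus strand, Tacr3).
Nmb: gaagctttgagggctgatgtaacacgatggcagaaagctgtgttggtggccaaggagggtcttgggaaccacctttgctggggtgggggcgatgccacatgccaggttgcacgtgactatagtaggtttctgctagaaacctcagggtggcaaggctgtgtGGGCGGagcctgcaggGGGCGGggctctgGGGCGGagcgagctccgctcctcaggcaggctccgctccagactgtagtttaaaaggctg
Grp: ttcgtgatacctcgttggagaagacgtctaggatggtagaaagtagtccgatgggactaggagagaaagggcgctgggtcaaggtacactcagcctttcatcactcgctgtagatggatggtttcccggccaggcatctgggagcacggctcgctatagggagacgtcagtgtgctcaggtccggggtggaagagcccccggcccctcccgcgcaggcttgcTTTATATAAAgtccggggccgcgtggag
Wfs1: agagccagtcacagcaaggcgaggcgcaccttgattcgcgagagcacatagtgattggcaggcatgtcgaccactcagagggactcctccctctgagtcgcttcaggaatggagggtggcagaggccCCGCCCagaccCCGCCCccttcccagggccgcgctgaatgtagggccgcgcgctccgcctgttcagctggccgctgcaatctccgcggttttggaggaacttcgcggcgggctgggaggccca
Tacr3: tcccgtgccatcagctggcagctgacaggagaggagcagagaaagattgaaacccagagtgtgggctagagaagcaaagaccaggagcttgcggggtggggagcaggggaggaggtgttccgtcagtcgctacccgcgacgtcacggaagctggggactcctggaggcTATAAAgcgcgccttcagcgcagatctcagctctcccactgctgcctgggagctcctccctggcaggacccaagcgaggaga

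The Nmb window held 3 GC boxes, starting 89, 73 and 60 bases before the start, and no TATA box, whereas the Grp window held no GC box. Its TATA box began 24 bases before the start and overlapped a match on the other strand at 28 bases. Wfs1 had 2 GC boxes on the other strand, 123 and 112 bases before the start, and Tacr3 had 1 TATA box at 82 bases. A GC box was present in 58.1% of the 227 ventral and 58.9% of the 214 dorsal promoters matched, beside 54.7% of the 10344 promoters of all tested transcripts and 32.4% of all 27457 in the RefSeq table. A TATA box was present in 9.25% and 5.14%, beside 7.56% and 13.1%. TGACGTCA was present in 1.32% and 3.27%, beside 2.74% and 1.70%, and AGGTCA in 7.49% and 8.88%, beside 11.4% and 13.7%. Median GC content was 62.0% in ventral, 63.4% in dorsal and 59.2% in all tested promoters. These matches describe the letters in the windows.

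Receptors for the classical modulators also differed by subtype. Of 14 serotonin receptor transcripts, Htr2c, Htr2a and Htr1f were ventrally enriched (21.4%, against 2.05% of all transcripts). None was dorsally enriched (against 2.02%), and the list median was 0.04. Only Htr2c was called without VH 2. Htr2a was at 3.66 and 4.49 FPKM in DH and 10.1 and 10.2 in VH, a log2 fold change of 1.14 (SE 0.26, adjusted p = 0.0359), and its call was lost when any 1 library was left out (highest adjusted p 0.155). Htr1a, the most abundant member, did not pass, at 35.8 and 38.8 FPKM in DH and 43.4 and 36.2 in VH. Htr1b was at 13.9 and 11.5 FPKM in DH and 5.37 and 5.65 in VH (adjusted p = 0.114), so a lower ventral level did not pass despite separate libraries. Adra2a, an adrenergic receptor, was at 1.28 and 0.881 FPKM in DH and 4.20 and 6.67 in VH and was the 1 call among 14 dopamine and adrenergic receptor transcripts, kept in every fit. Of 24 cholinergic transcripts, 3 were called on each side. The muscarinic receptors Chrm3 and Chrm2 were dorsal, Chrm3 at 37.5 and 36.5 FPKM in DH against 21.2 and 23.9 in VH. The nicotinic subunits Chrna7 and Chrna4 were ventral, as was Lypd1, which modulates nicotinic receptors, at 16.3 and 16.7 against 53.0 and 58.2 FPKM (log2 fold change 1.69, SE 0.13, adjusted p = 0.000803). Chrna1, the muscle-type subunit, was called dorsal near 1 FPKM. Lypd1 and Chrm3 were kept in every fit, and the other 4 were not.

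Receptors for fast transmission held few calls. Of 33 ionotropic glutamate receptor transcripts 1 was ventral and 2 dorsal (3.03% and 6.06%, against 2.05% and 2.02% of all transcripts), and 0 or 1 on each side with 1 library left out. Grin2a, the NMDA receptor subunit that gains ground as synapses mature, was at 71.6 and 78.4 FPKM in DH and 36.4 and 44.6 in VH. Grin3a, an NMDA receptor subunit typical of younger synapses, was at 1.37 and 1.14 FPKM in DH and 4.68 and 7.14 in VH. Gria3, an AMPA receptor subunit, was at 64.1 and 70.1 against 40.6 and 43.7 FPKM, whereas Gria1 was at 306 and 337 against 246 and 269 and did not pass (adjusted p = 0.0606). None of these 3 calls was kept in every fit (highest adjusted p 0.138 for Grin2a, 0.0594 for Grin3a and 0.0708 for Gria3). Of 21 GABA receptor transcripts, Gabra3 and Gabrq were ventral (9.52%) and 0 were dorsal. Gabra3 was at 5.12 and 8.05 FPKM in DH and 17.6 and 23.6 in VH. Gabrq was listed at 0 in both DH libraries and at 1.86 and 3.26 FPKM in VH. With 1 library left out there were 1 to 3 ventral calls in this list, fewest without VH 2 and most without DH 2, and without DH 1 there was also 1 dorsal call. Gabra2 was at 105 and 121 FPKM in DH and 158 and 168 in VH, with an adjusted p of 0.0110 and a fold change under the limit.

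**Figure D3:**
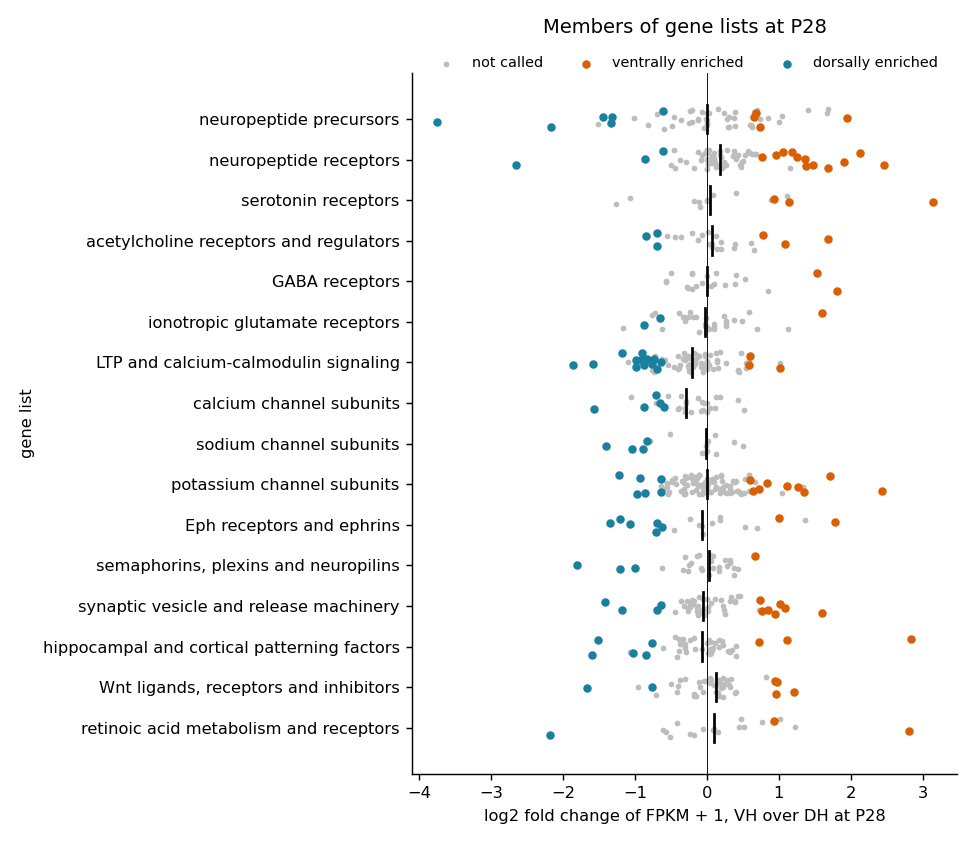
The log2 fold change of FPKM + 1 (x axis, VH over DH) of every tested transcript in 16 gene lists, with called transcripts in colour and the list median as a bar. Neuropeptide receptors have 12 ventral and 3 dorsal calls, and calcium channel subunits 5 dorsal and 0 ventral.

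Calcium and kinase signalling genes were mainly lower in VH. Of 83 transcripts for long-term potentiation and calcium-calmodulin signalling, 62 were lower in VH, 13 were dorsally enriched (15.7%, against 2.02% of all transcripts) and 3 ventrally enriched (3.61%, against 2.05%), with a median log2 difference of -0.20. The largest difference was that of Camk4, a nuclear calcium-calmodulin kinase, at 63.3 and 59.3 FPKM in DH and 15.9 and 16.5 in VH (log2 fold change -1.86, SE 0.19, adjusted p = 0.00226). Camkk2, a kinase that activates it, was at 72.4 and 83.1 against 39.8 and 46.5 FPKM. Prkcb, a protein kinase C, was at 87.9 and 81.3 against 52.1 and 49.0 FPKM, and Itpr1, the calcium release channel, had a log2 fold change of -0.98. The 3 ventral calls were Rps6ka6 and Rps6ka3, kinases of the RSK family, and Prkacb, a catalytic subunit of protein kinase A, at 156 and 185 FPKM in DH and 250.3 and 268 in VH. Dorsal calls in the list fell to between 5 and 8 when 1 library was left out, the lowest without DH 2, and 4 were kept in every fit. The ventral calls fell to 1 without DH 1 or VH 2.

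Voltage-gated channel subunits followed, with dorsal calls for sodium and calcium and calls on both sides for potassium. Of 17 sodium channel transcripts 4 were dorsally enriched (23.5%, against 2.02% of all transcripts) and 0 ventrally (against 2.05%). Among the 4 were transcripts of auxiliary beta subunits, which set the gating and placement of the channel: Scn3b at 396 and 360.4 FPKM in DH and 213 and 212 in VH, and Scn4b at 16.1 and 12.4 against 5.01 and 4.51. The pore-forming Scn2a was at 75.4 and 84.1 FPKM in DH and 75.3 and 82.1 in VH. Leaving out 1 library gave 3 or 4 dorsal calls here, and without VH 2 there was also 1 ventral call. Of 29 calcium channel transcripts 5 were dorsally enriched (17.2%) and 0 ventrally, and 23 were lower in VH, with a median log2 difference of -0.29. Cacna1a, the pore of P/Q-type channels, was at 39.9 and 44.1 FPKM in DH and 22.4 and 22.6 in VH. Cacng8 and Cacng5, which also regulate AMPA receptors, were at 214 and 218 against 127 and 136 FPKM and at 10.4 and 17.3 against 5.15 and 2.81. Without DH 2, 2 of the calcium channel list were called, without DH 1 there was 1 ventral call beside the 5 dorsal ones, and Cacng8 and Cacna1a were kept in every fit. Potassium channels went both ways, with 9 ventral and 6 dorsal calls among 103 transcripts (8.74% and 5.83%) and a median of 0.00. Kcnf1, a silent subunit that modifies other channels, was at 4.36 and 3.40 FPKM in DH and 24.8 and 26.0 in VH. Kcnq5, which carries the M-current, was at 37.4 and 37.6 against 67.5 and 67.5 FPKM, and Kcnj6, an inward rectifier opened by G proteins, at 34.5 and 37.7 against 18.8 and 18.0. Ventral potassium channel calls numbered 3 without VH 2 and 5 without each of the others, and dorsal ones 1 without VH 2 and 3 to 5 without the others.

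Guidance molecules and their receptors were called on both sides. Of 19 Eph and ephrin transcripts, 6 were dorsally enriched (31.6%, against 2.02% of all transcripts) and 2 ventrally enriched (10.5%, against 2.05%). The dorsal calls were all Eph receptors (Epha7, Epha4, Ephb1, Ephb2 and 2 transcripts of Epha5), and the ventral calls were the ligands Efnb2 and Efnb3. Efnb2 was at 7.42 and 5.63 FPKM in DH and 25.3 and 24.0 in VH, a log2 fold change of 1.78 (SE 0.18, adjusted p = 0.00226), and Efnb3 at 50.1 and 54.7 against 106 and 106. Epha7 was at 90.8 and 108 FPKM in DH and 38.5 and 38.2 in VH. Dorsal calls numbered 2 or 3 with 1 library left out, lowest without DH 2 or VH 2, ventral calls numbered 1 without VH 2, and of all 8 calls only Epha4 and Efnb2 were kept in every fit. Sema7a, a membrane-anchored semaphorin, was at 189.5 and 203 FPKM in DH and 55.9 and 54.7 in VH, with a log2 fold change of -1.81 (SE 0.11, adjusted p = 0.000622). It was 1 of 3 dorsal calls among 28 semaphorin, plexin and neuropilin transcripts, with Sema3c and Plxnd1, while Sema4g was ventral, and the other 3 were not kept in every fit (highest adjusted p 0.121, 0.0749 and 0.157). The semaphorin list thus had 10.7% dorsal and 3.57% ventral calls. The list of netrins, slits and their receptors had 1 call on each side among 29 transcripts (3.45% each), close to the shares of all transcripts. Its ventral call Slit2, a repellent ligand, was at 8.75 and 8.71 FPKM in DH and 19.4 and 23.5 in VH. Its dorsal call Robo3, a divergent member of the Robo receptor family, was at 5.78 and 3.89 against 0.353 and 0.0947. Robo1 and Robo2 were lower in VH at folds under the limit, with log2 fold changes of -0.56 and -0.49.

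Transcription factors and morphogen pathways gave calls on both sides. Of 45 patterning factors, 3 were ventral (Nr2f2, Etv1 and Nr2f1) and 5 dorsal (Tbr1, Pou3f1, Bcl11b, Neurod2 and Neurod6). These were 6.67% and 11.1% of the list, against 2.05% and 2.02% of all transcripts. Tbr1, a T-box factor of glutamatergic neurons, was at 13.7 and 15.1 FPKM in DH and 4.06 and 4.09 in VH, a log2 fold change of -1.60 (SE 0.11, adjusted p = 0.000718). Neurod2, a bHLH factor of the same lineage, was at 76.1 and 83.1 against 41.9 and 45.8 FPKM. Nr2f2, Tbr1 and Neurod2 were kept in every fit. With 1 library left out, dorsal calls numbered 2 or 3 and ventral calls 2, or 1 without VH 2. In the retinoic acid list of 19 transcripts, the degrading enzyme Cyp26b1 was dorsal (5.26%) and the receptors Rxrg and Rxra were ventral (10.5%). Aldh1a1, which makes retinoic acid, was at 16.5 and 23.5 FPKM in DH and 12.3 and 15.02 in VH (adjusted p = 0.306 by limma). Rxrg and Cyp26b1 were kept in every fit, and Rxra was lost without DH 2, VH 1 or VH 2 (highest adjusted p 0.144). Among 44 Wnt pathway transcripts 4 were ventral and 2 dorsal (9.09% and 4.55%). Wnt7b was at 21.2 and 17.4 FPKM in DH and 45.2 and 46.0 in VH, and its receptor Fzd1 at 3.21 and 3.33 against 7.25 and 7.34. Wnt10a was at 2.43 and 3.20 FPKM in DH and 0.238 and 0.156 in VH. Secreted inhibitors of Wnt divided, with Sfrp1 and Sfrp4 ventral and Sfrp2 dorsal. These 3 were not kept in every fit (highest adjusted p 0.112, 0.122 and 0.152), and Wnt7b, Fzd1 and Wnt10a were.

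Immediate early genes, which neurons switch on with activity, were called in both directions. Among 35 transcripts 3 were ventral and 2 dorsal (8.57% and 5.71%, against 2.05% and 2.02% of all transcripts). Egr1 was at 49.6 and 45.3 FPKM in DH and 27.8 and 24.9 in VH, whereas Egr2 was at 0.376 and 0.461 against 2.36 and 1.95. Jun was at 40.7 and 43.6 against 67.2 and 63.1 FPKM, and of the 5 calls only Egr2 was kept in every fit. Of 52 transcripts of the vesicle release machinery, 7 were ventral and 4 dorsal (13.5% and 7.69%). Syt7, a calcium sensor of slow release, was at 155 and 138 FPKM in DH and 64.1 and 63.9 in VH, and Syt17 was at 24.7 and 26.0 against 50.9 and 48.4. Core fusion proteins did not pass: the main Snap25 transcript was at 1012 and 1118 FPKM in DH and 949 and 1007 in VH, and Vamp2 at 452 and 446 against 473 and 462. Ventral calls numbered 2 to 4 with 1 library left out, lowest without VH 2. In the lists for perineuronal nets (19 transcripts) and MHC molecules (38) there were 0 calls, or 1 dorsal call each without DH 2. Of 36 interferon-induced transcripts only Mx1 and Oasl2 were called, with Oasl2 lost when any 1 library was left out (highest adjusted p 0.167) and 1 of the 6 Mx1 transcripts called, at 0.277 and 0.513 FPKM in DH and 17.6 and 14.3 in VH. The values given for Nnat, Camk2b, Prkcb, Grin3a and Gria3 are also those of 1 called transcript of several. Mx2, the relative of Mx1, was at 7.90 and 6.03 against 6.12 and 6.46 FPKM.

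Marker lists of cell types were examined because whole tissue was sequenced, in which fewer cells of a type and less RNA per cell cannot be told apart. Slc17a7, the vesicular glutamate transporter of hippocampal principal neurons, was high in both regions, at 1187 and 1197 FPKM in DH and 997 and 978 in VH. All 6 CA1 markers tested had a negative log2 difference, with a median of -1.28. That of Dcn was only -0.03, and its regions overlapped, at 16.9 and 20.2 FPKM in DH and 18.5 and 17.6 in VH. The summed level of the list was 477 and 335 FPKM in DH and 124 and 111 in VH, with Wfs1 the largest share of it in DH. Wfs1 and Pou3f1 passed, and Pou3f1 was lost when any 1 library was left out (highest adjusted p 0.155). Nov was at 82.5 and 58.3 FPKM in DH against 25.1 and 23.3 in VH, and did not pass (adjusted p = 0.0682). For CA2, Rgs14, a regulator of G protein signalling, was at 79.3 and 74.7 FPKM in DH and 29.2 and 28.02 in VH, whereas the main transcript of Pcp4, another CA2 marker, was at 475 and 532 against 589 and 517. Of 9 CA2 transcripts tested, 6 were lower in VH, with a median log2 difference of -0.48. Rgs14 and Cacng5 were called dorsal (22.2%, against 2.02% of all transcripts), and Cacng5 was lost without DH 2 or VH 2. Subiculum markers summed to 158 and 133 FPKM in DH and 63.9 and 67.7 in VH, with Nts the largest share of the sum in DH. The median log2 difference of that list was -0.06, 3 of its 8 transcripts were higher in VH, and Slc17a6, a vesicular glutamate transporter, was called ventral. The Slc17a6 call was lost without DH 2, VH 1 or VH 2, with log2 fold changes from 0.64 to 0.84 over the leave-outs. Mossy cell markers summed to 78.1 and 60.8 against 98.1 and 101 FPKM, and Calb2 was the 1 call among them. That call was lost without DH 2 or VH 2, with log2 fold changes from 1.16 to 1.65 over the leave-outs. None of the 10 dentate granule cell transcripts was called, or 1 as dorsal without DH 1, and their summed levels overlapped. The dorsal calls described above were made while the summed CA1 markers were lower in VH, and the part of that difference in each call was not tested.

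Interneuron markers leaned the other way. Of 30 transcripts, 25 were higher in VH, as were 50.3% of all transcripts, and 7 were ventrally enriched (23.3%, against 2.05% of all transcripts), with 0 dorsally enriched (against 2.02%) and a median log2 difference of 0.41. The calls included the homeobox factors Dlx1 and Lhx6, Sst, Nos1 and the receptor Kit, which was at 33.1 and 38.3 FPKM in DH and 56.7 and 61.0 in VH. Summed levels of the list were 1020 and 1030 FPKM in DH and 1250 and 1390 in VH. The enzymes that make GABA did not pass, with Gad1 at 85.9 and 102 FPKM in DH and 118 and 139 in VH, and Gad2, whose regions overlapped, at 93.2 and 131 against 100.2 and 134. Pvalb, of fast-spiking interneurons, was at 162 and 131 FPKM in DH and 124 and 115 in VH. With 1 library left out 1 to 3 of the list were called, lowest without DH 1 or VH 2, and only Kit was kept in every fit. Calb2, calretinin, found in some interneurons and placed here on the mossy cell list, was at 12.97 and 8.89 FPKM in DH and 27.4 and 33.2 in VH. Whether it marks mossy cells in the rat was not tested.

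**Figure D4:**
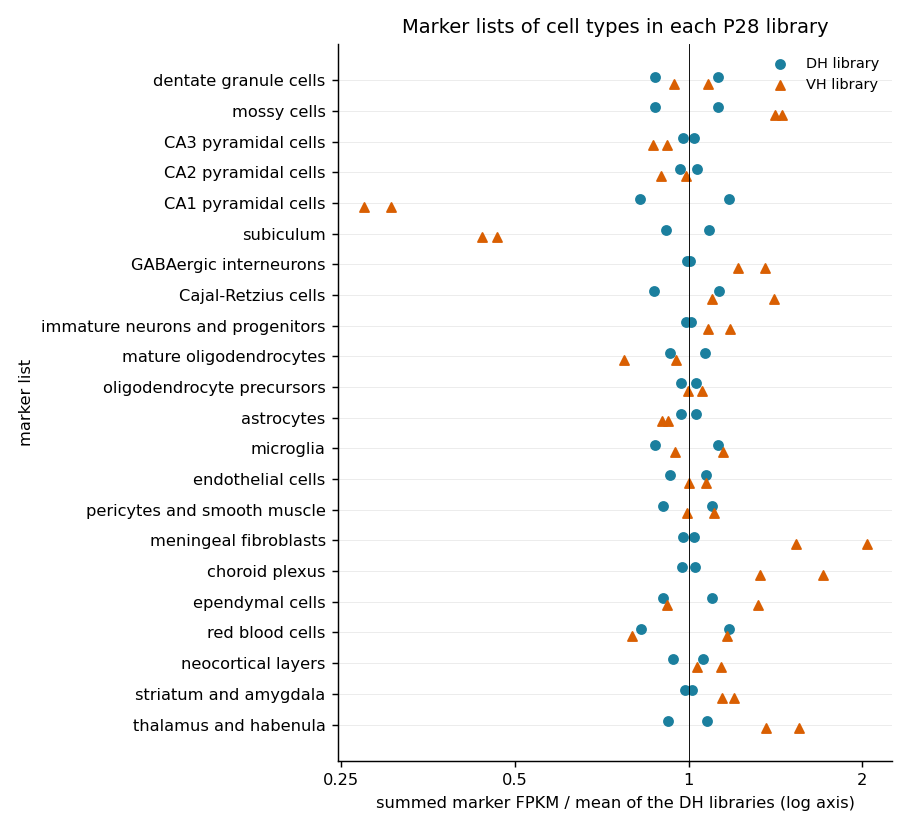
Summed FPKM of the markers of each cell type or neighbouring tissue in each P28 library, divided by the mean of the 2 DH libraries and drawn on a log axis. CA1 markers and the subiculum sum, in which Nts has the largest share in DH, are among those lower in both VH libraries, and meningeal fibroblast, choroid plexus, interneuron, mossy cell, thalamus, and striatum and amygdala markers are among those higher in both.

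Glial and vascular lists held 0 calls, beside 2.05% and 2.02% of all transcripts, which in lists of this size comes to less than 1 call in each direction. They were mature oligodendrocytes (21 transcripts), their precursors (12), astrocytes (18), microglia (19), endothelial cells (11) and pericytes with smooth muscle (11). Without DH 2 the precursor list had 1 dorsal call, and with a replicate block the astrocyte list had 1 call on each side. Of the oligodendrocyte transcripts 17 were lower in VH, with overlapping summed levels of 6290 and 5470 FPKM in DH and 5600 and 4550 in VH. Of the astrocyte transcripts 13 were lower in VH, with summed levels of 3840 and 3620 FPKM in DH and 3430 and 3350 in VH. Log2 differences of single transcripts in the astrocyte list ranged from -3.74 to 2.84, and none of them was called in the main fit. The main transcript of Slc1a2, a glutamate transporter of astrocytes, was at 808.5 and 836 FPKM in DH and 607 and 622 in VH, with an adjusted p of 0.0409 and a fold change under the limit, while Aldoc, an aldolase of astrocytes, was at 619.5 and 558 against 569 and 616.5. Among borders of the tissue, the meningeal fibroblast list had 3 ventral calls among 12 transcripts (Lum, Igf2 and Col1a1), 11 were higher in VH, and its summed level was 152 and 146 FPKM in DH and 304 and 229 in VH. Most of that sum was Ptgds, which was at 112 and 104 FPKM in DH and 241 and 169.9 in VH and was not called (adjusted p = 0.0833). Lum, a matrix proteoglycan, was at 1.91 and 2.67 FPKM in DH and 7.65 and 10.04 in VH. The choroid plexus list had 3 ventral calls among 17 transcripts (Ttr, Igfbp2 and Sulf1), and its summed level was 71.5 and 67.9 FPKM in DH and 119 and 92.6 in VH. Ttr was at 1.69 and 0.519 FPKM in DH and 25.7 and 11.7 in VH, and Igfbp2 at 9.75 and 9.85 against 27.4 and 24.5. Enpp2, at 47.96 and 41.4 FPKM in DH and 44.5 and 39.3 in VH, and Calml4, at 8.45 and 13.3 against 14.2 and 10.6, overlapped between the regions, and 12 of the 17 were under 2 FPKM in every library. The ependymal list had 0 calls among 10 transcripts, but 9 were higher in VH, with a median log2 difference of 0.57 against 0.47 for the meningeal and 0.19 for the choroid plexus list. Its summed level was 45.2 and 37.2 FPKM in DH and 54.4 and 37.8 in VH, so the regions overlapped. The part of these border and neighbouring tissues in the ventral calls was not tested. With 1 library left out, the meningeal list had 1 call, or 0 without VH 2, and the choroid plexus list 1 or 2, with only Sulf1 kept in every fit. Markers of the neocortex, striatum and amygdala, and thalamus, tissues next to the hippocampus, had 1, 2 and 1 ventral calls and 1 dorsal call each, of which 1 dorsal neocortical and 1 ventral striatal call were kept in every fit. The striatum and amygdala list was higher in VH in 11 of 15 transcripts, with a median log2 difference of 0.32 and summed levels of 110 and 107 FPKM in DH and 130 and 124 in VH, with Rxrg and Rgs9 as its ventral calls. The thalamus list was at 36.9 and 31.6 against 46.7 and 53.3 FPKM, with Calb2 as its ventral call, and the neocortical list overlapped, at 567 and 638 against 687 and 624.

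The same comparison was made at P14 and P45 with the libraries of those ages. The fit shares 1 estimate of the spread of each transcript over all 12 libraries, so calls at the 3 ages are not independent of each other. Of the 293 ventrally enriched transcripts at P28, 270 (92.2%) were also higher in VH at P14 and 279 (95.2%) at P45, and 161 (54.9%) and 153 (52.2%) were also called there. Of all tested transcripts 50.1% were higher in VH at P14 and 50.1% at P45, and 1.72% and 1.8% were called ventral. For the 288 dorsally enriched ones, 275 (95.5%) and 280 (97.2%) kept the direction, and 149 (51.7%) and 147 (51.0%) were also called, beside 48.6% and 48.1% of all transcripts higher in DH and 1.82% and 1.68% called dorsal. At all 3 ages 115 ventral and 95 dorsal transcripts were called. All 24 leading transcripts had the same direction at the 3 ages. The log2 fold change of Nts over P14, P28 and P45 was -2.19, -3.75 and -3.75, and that of Rxrg was 2.24, 2.82 and 2.89. For Ttr it was 0.73, 3.19 and 2.001. Whether the regional difference changed with age was tested directly with an interaction term: 2 of 14259 transcripts passed from P14 to P28 (0.014%) and 4 from P28 to P45 (0.0281%), while 932 and 1021 had an unadjusted p under 0.05. None of the leading 24 was among them, with a smallest adjusted p of 0.29 for the first step and 0.460 for the second.

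**Figure D5:**
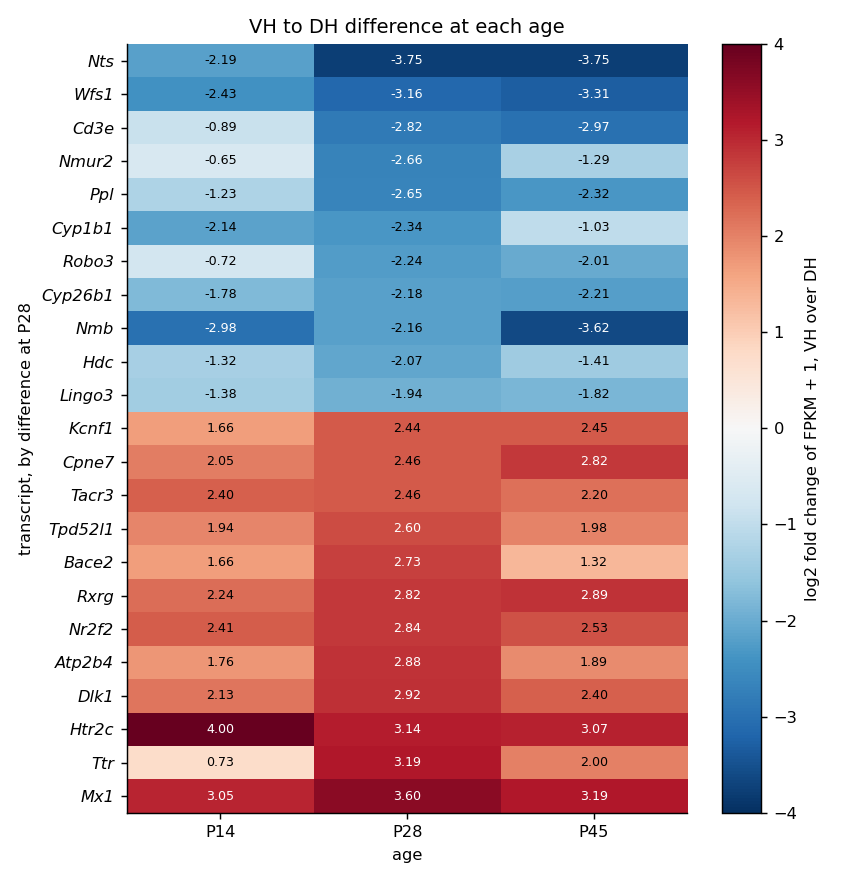
The VH to DH difference of 23 of the 24 leading transcripts at P14, P28 and P45, as log2 fold change of FPKM + 1 printed in each cell and coloured blue for higher in DH and red for higher in VH. Each row keeps its direction over the 3 ages.

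Slc19a3, a thiamine transporter, was at 2.88 and 2.36 FPKM in DH and 0.545 and 0.536 in VH at P28, with a log2 fold change of -1.23, against 0.15 and 0.12 at the younger and older age (adjusted p of the change 0.251 and 0.167, by limma). Ptgds, prostaglandin D synthase, abundant in meninges, had log2 fold changes of -1.16, 0.91 and -0.07 over the 3 ages. It passed as higher in DH at P14 (adjusted p = 0.0409) and was not called at P28 (0.0833), and the change did not pass at either step (0.374 and 0.651), by limma.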

How the data were processed

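Libraries were made by the authors from DH and VH RNA with the TruSeq RNA kit and sequenced on a NextSeq500 as paired-end reads. Reads were mapped to the rat genome build rn5 with TopHat 2, and the submitters' processing notes also name Cufflinks 2.2.1. The deposited table holds FPKM for RefSeq transcripts, scaled by the authors across libraries with the TMM method. The study gives read totals per library apart from this table, and they were not used here. Some transcripts of multi-transcript genes have FPKM near 0 in all or single libraries, so their values rest on how reads were divided. Here log2(FPKM + 1) was fitted with limma 3.58.1 in R 4.3.3, with a mean for each of the 6 groups, 6 residual degrees of freedom, a mean-variance trend and Benjamini-Hochberg adjustment over all 14259 transcripts. The fit was also run on simulated data in which each transcript had 1 spread in all 12 libraries. It called 49 of 50 changes of log2 -1 and 46 of 50 of log2 1, with 4 false calls. Because a shared spread was built in, the simulation cannot show whether it holds in the deposited libraries. Alternatives covered the pseudocount, filters, scaling, thresholds, summing of transcripts, a replicate block and leaving out each P28 library. Of the tested transcripts 94.4% matched a RefSeq gene. Genes were named by rule: the 12 largest differences (at least 1 FPKM in the higher region) and the 10 smallest p and 10 highest levels of each direction, up to 6 calls per list with up to 3 abundant others, the 5 smallest p of each change with age, and 4 known regional markers. Receptors, ligands and defining markers named beside these were chosen after their values were seen. The members, the lists and the markers were chosen with earlier results of these data known. Some genes that the rule names are not reported here.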

Additional observations from a re-analysis of the deposited data

Results flagged for a closer look

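The VH to DH difference of 5 transcripts changed with age by a test of the change itself (limma, interaction term, adjusted p under 0.05), and all of them were near 0 in most libraries. From P14 to P28 the log2 difference of Cthrc1, a secreted collagen-related protein, changed by -1.21 (adjusted p = 0.00964), with P28 levels of 0.430 and 0.527 FPKM in DH and close to 0 in VH. Tnp2, a protein of sperm chromatin, changed by 0.62 from P14 to P28 and by -0.62 from P28 to P45, on levels of 0 in all libraries but the VH libraries of P28, at 0.547 and 0.537 FPKM. From P28 to P45 the changes were 0.80 for Il21, 1.57 for 1 transcript of Plec and -0.61 for 1 transcript of Ntf3, each from a level of at most 0.0243 FPKM in every P28 library. With transcripts under a mean of 1 FPKM left out, 0 changes passed at either step.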

How the results depend on the processing

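Fitting only the 4 P28 libraries gave 0 ventral and 0 dorsal calls by limma, with 444 and 386 at an unadjusted p under 0.05 and a fold above 1.5; it leaves 2 residual degrees of freedom, while the main calls use the spread of all 12 libraries. Testing against a fold of 1.5 gave 26 and 21, and an adjusted p under 0.01 gave 132 and 146. Leaving out 1 P28 library gave 121 to 188 ventral and 140 to 204 dorsal calls, fewest without VH 2 and most without VH 1 for ventral and without DH 1 for dorsal calls. The other settings gave 201 to 343 ventral and 230 to 315 dorsal calls. Differences between replicates, taken over all tested transcripts, correlated between the 2 regions at 0.0752, 0.0981 and 0.111 at P14, P28 and P45. No limit for pairing was set, and the sources used here do not say whether same-numbered libraries share an animal. Pairing therefore stays undecided. A replicate block within each age gave 201 and 230 calls, 187 and 213 of them shared with the main fit. For the change from P14 to P28 (2 transcripts) and from P28 to P45 (4), the counts were 20 and 17 with no filter, 0 and 0 with a mean of at least 1 FPKM, with only the libraries compared, with the replicate block and with transcripts of a symbol summed, 1 and 0 with quantile normalization or an adjusted p under 0.01, 1 and 2 with centred libraries, 1 and 1 without a trend, and 3 to 9 and 5 to 9 with 1 P28 library left out. Unadjusted counts under 0.05 for these changes ran from 680 to 1166, except against a fold of 1.5, where they were 55 and 38. Of the 152 named calls, 34 were lost with the replicate block, 24 with no filter, 118 and 57 at the stricter thresholds, 41 to 71 with 1 P28 library left out, and at most 6 under each of the pseudocount, scaling, trend, summing and mean-level settings. None of these results reversed direction under the settings run. Bc1 and Mir2985 were listed at 263 and 298 FPKM in VH 1 and at 0 in the other 3 P28 libraries, and were not called.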
